A study of Mus musculus with 5 samples.

Results

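The Cyp2 genes encode the largest family of drug- and steroid-oxidizing cytochrome P450 enzymes in mouse liver, and their expression was compared in livers of db/db mice given SR4 or vehicle. All rows of the deposited gene table were taken whose symbol was Cyp2, 1 letter and a number, and whose value was 10 or more in at least 2 of the 5 libraries. All 36 rows with such a symbol passed that limit, out of 11065 rows in the table. They fell into 10 subfamilies by letter, with 13 Cyp2c genes, 8 Cyp2d, 4 Cyp2a, 3 Cyp2b, 3 Cyp2j and 1 each of Cyp2e, Cyp2f, Cyp2g, Cyp2r and Cyp2u.

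RNA sequencing measured gene expression in whole liver in 5 libraries, 3 from the vehicle group and 2 from the SR4 group. Every mouse was db/db, a strain that lacks the signalling form of the leptin receptor and becomes obese and diabetic, so both groups share that defect and no lean control entered the comparison. Mice had 1 week to acclimatize and then 5 weeks of vehicle or of SR4 at 10 mg/kg body weight by gavage. SR4 is described by the series as a proton transporter that fatty acids activate, and the comparison asks what it does to liver expression. The sources used here give neither age nor sex of the mice. Nor do the labels say that the libraries are from separate animals, and the p-values then measure only a spread between libraries that may be technical.

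Cytochrome P450 enzymes of this family sit in the endoplasmic reticulum of hepatocytes, bind heme and use electrons from the reductase Por to oxidize drugs, steroids and fatty acids. In mouse liver many of them lie in tandem arrays of closely related genes. The nuclear receptors CAR (Nr1i3) and PXR (Nr1i2) induce several of them, growth hormone pulses set the sex difference of others, and many are expressed near the central vein.

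The deposited values were read counts brought to a common total, from 25494141 to 25494437 per library. A normalised count below is that value divided by a trimmed-mean scaling factor, and these factors ran from 0.9465 to 1.077. The true read depth of each library is not in the values. Vehicle library 1 stood apart for this family: it had the lowest of the 3 vehicle values for 27 of the 36 genes, 75%, against 37% of all genes tested. The highest vehicle value was at least 2 times the lowest for 16 of the 36, 44.4%, against 6.96% of all genes without a vehicle value of 0. The fitted change without that library is given beside each gene described below where it differs by over 1.5 times or turns a call, and for Cyp2d10 and Cyp2d12 it turned sign.

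Cyp2 transcripts made up 1.14%, 1.76% and 1.94% of the counts in vehicle libraries 1, 2 and 3, and 2.36% and 2.01% in SR4 libraries 1 and 2. Summed over the 36 genes, the normalised counts were 270400, 444500 and 485900 in vehicle and 636700 and 534400 in SR4. Both SR4 libraries lay above the vehicle range, and the ratio of the group means was 1.46, or 1.26 without vehicle 1. Subfamilies differed in this ratio. The Cyp2c sum had a ratio of 1.9 (1.6 without vehicle 1) and the Cyp2b sum 1.8 (1.5). The Cyp2a sum had a ratio of 1.49 (1.34), the Cyp2d sum 1.14 (1.02) and the Cyp2j sum 1.16 (1.07). As a share of all Cyp2 counts, Cyp2c made up 19.0% to 21.5% in the vehicle libraries and 26.7% and 27.6% in the SR4 libraries, while Cyp2d made up 15.7% to 19.9% and then 13.9% in both SR4 libraries. These shares did not overlap between the groups for either subfamily.

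Of the 36 genes, 1 was called by limma at an adjusted p under 0.05 over all genes tested, Cyp2c68, which rose. The background for this call was 1.32% of 10542 genes, with 0.436% higher and 0.882% lower. The call split over all genes was 46 higher and 93 lower, or 37 and 135 with equal totals. At an unadjusted p under 0.05 there were 18 of the 36, with 14 higher in SR4 and 4 lower (8 in all without SR4 1), where the background was 21.4% of all genes (10.2% higher and 11.1% lower). In 18 genes both SR4 libraries lay above the vehicle range, against 21.1% of all genes, and in 4 they lay below it, against 20.5%. Outside that range in either direction were 41.6% of all genes. Without vehicle 1, 18 genes lay above, against 25.4% of all genes, and 5 below. The share of all genes below was not computed for that setting, so the 5 cannot be set against it. The fitted change was above 0 for 28 genes and below 0 for 8, and 49% of all genes were above 0. The median log2 fold change of the family was 0.53 beside -0.01 for all genes tested, and 0.36 without vehicle 1. With values scaled to equal totals alone, the median of all genes was -0.13 and that of the family 0.42. Changes of at least 2-fold were fitted for 10 genes upward and 3 downward, against 6.02% of all genes in either direction. The plot of the 5 libraries by gene shows the spread behind these counts.

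**Figure D1:**
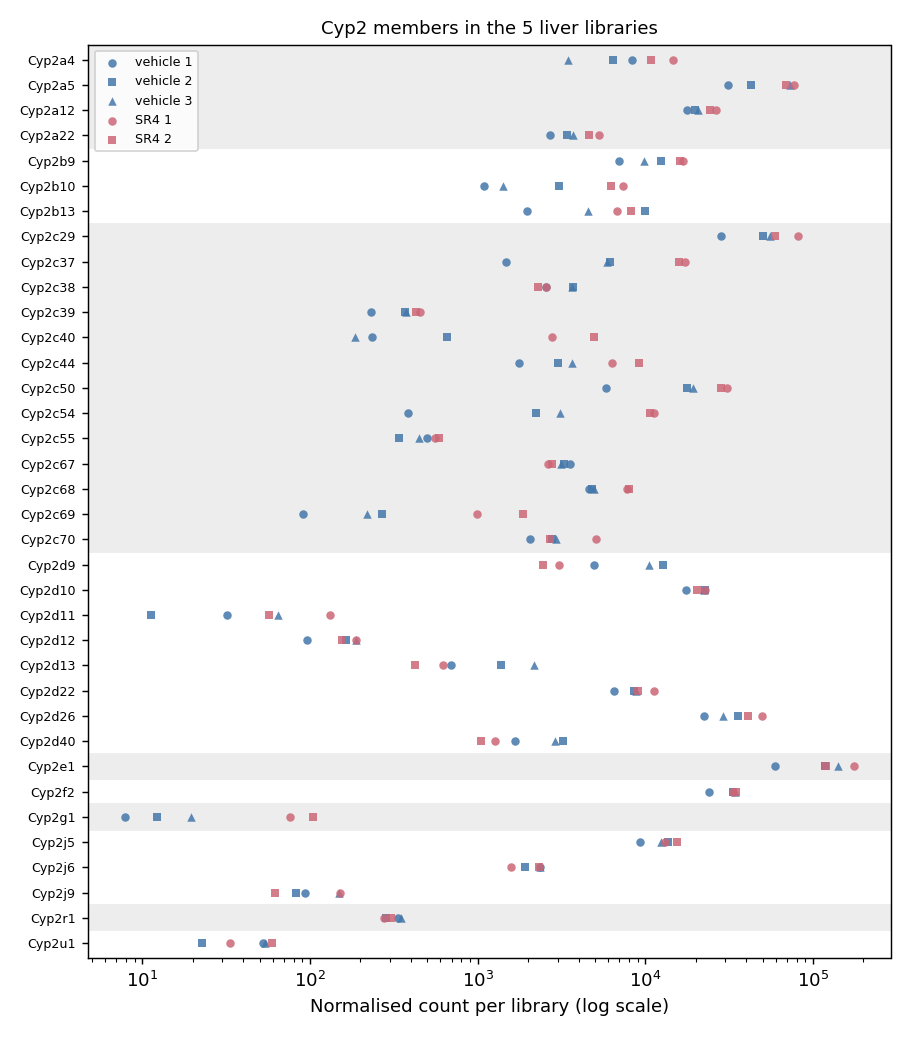
Normalised counts of the 36 Cyp2 genes on a log axis, with 1 point per library, blue for the 3 vehicle and red for the 2 SR4 libraries, and grey and white bands separating subfamilies. Both red points lie to the right of all blue points for 18 genes and to the left for 4, and vehicle 1 (blue circles) is the lowest vehicle point for 27.

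Per kilobase of exon, levels in the vehicle libraries spanned a wide range. Exon length here is that of all annotated exons of a gene merged, and ranks depend on that choice. For Cyp2c29 it is 3061 bases, against 1783 for its transcript with the longest coding sequence. Cyp2e1 stood first with 49070 ± 19500 normalised counts per kilobase (SD, n = 3), ahead of Cyp2a5 with 23540 ± 10400. Cyp2d26 at 16220 ± 3650, Cyp2f2 at 15010 ± 2800, Cyp2c29 at 14570 ± 4750 and Cyp2d10 at 12620 ± 1760 followed and did not differ beyond their spread. The lowest levels per kilobase were those of Cyp2u1, 8.184 ± 3.36, and Cyp2g1, 6.164 ± 2.76. Cyp2d13 had no exon length and was not ranked, so 35 genes were.

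The Cyp2c genes, whose products oxidize arachidonic acid, retinoids and drugs, had a median log2 fold change of 0.71. Of the 13, 1 rose, 11 had a fitted change above 0, and both SR4 libraries lay above the vehicle range in 10 and below it in 1. Over all genes, 49% were fitted above 0, 21.1% lay above the range and 20.5% below it. Of these genes 12 lie in 1 array of 1180 kilobases on chromosome 19 (39007019 to 40187333, GRCm38), and Cyp2c44, named Cyp2c23 in GENCODE, lies apart on the same chromosome. Gene positions are those of GENCODE M21, where each gene with a printed gene position is protein-coding. GENCODE M21 is on GRCm38, the build named in the submitters' processing notes.

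Cyp2c67, Cyp2c68, Cyp2c40 and Cyp2c69 follow each other in that order on the minus strand of chromosome 19, from 39608842 to 39886799, and their coding sequences are 96.54% to 98.1% identical. Cyp2c40 is known to hydroxylate arachidonic acid and to be expressed mainly in female liver. The promoters of these 4 genes are shown because near-identical neighbours differed in their values in SR4. Each sequence runs from 250 bases before to 50 bases after the RefSeq start on GRCm38.p6, 5′ to 3′ on the gene's own strand, and capitals mark a match to CAAAGTCCA, a core of the sites bound by the hepatocyte factor HNF4.
Cyp2c67, chr19:39648993-39649292, minus strand: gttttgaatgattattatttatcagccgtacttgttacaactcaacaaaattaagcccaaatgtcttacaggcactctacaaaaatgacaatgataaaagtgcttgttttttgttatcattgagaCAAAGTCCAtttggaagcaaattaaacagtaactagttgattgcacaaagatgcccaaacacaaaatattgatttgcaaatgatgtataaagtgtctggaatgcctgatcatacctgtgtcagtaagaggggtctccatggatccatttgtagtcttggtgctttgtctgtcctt
Cyp2c68, chr19:39741052-39741351, minus strand: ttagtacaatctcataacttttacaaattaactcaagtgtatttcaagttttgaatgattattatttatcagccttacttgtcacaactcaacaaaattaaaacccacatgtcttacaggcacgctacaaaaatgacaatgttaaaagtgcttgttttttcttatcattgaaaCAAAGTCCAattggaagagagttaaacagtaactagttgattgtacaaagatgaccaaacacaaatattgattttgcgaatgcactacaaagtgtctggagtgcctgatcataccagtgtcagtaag
Cyp2c40, chr19:39812765-39813064, minus strand: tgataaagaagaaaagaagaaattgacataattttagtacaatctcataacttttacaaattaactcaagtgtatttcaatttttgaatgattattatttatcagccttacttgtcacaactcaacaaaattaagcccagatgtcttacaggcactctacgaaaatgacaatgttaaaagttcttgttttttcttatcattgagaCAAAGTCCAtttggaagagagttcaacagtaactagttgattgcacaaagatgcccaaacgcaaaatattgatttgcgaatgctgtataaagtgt
Cyp2c69, chr19:39886720-39887019, minus strand: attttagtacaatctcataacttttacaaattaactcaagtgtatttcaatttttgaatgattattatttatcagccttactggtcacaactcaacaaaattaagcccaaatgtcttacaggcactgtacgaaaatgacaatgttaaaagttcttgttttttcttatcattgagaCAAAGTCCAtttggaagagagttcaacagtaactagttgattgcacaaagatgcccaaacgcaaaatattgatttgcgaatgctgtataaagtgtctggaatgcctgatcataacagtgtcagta

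The match starts 125, 77, 45 and 75 bases before the start in Cyp2c67, Cyp2c68, Cyp2c40 and Cyp2c69. Searched on both strands, these letters occurred in 5 of the 29 Cyp2 promoters at hand, the fifth being that of Cyp2c70, and in 0.475% of 32851 mouse promoters of the same length. The promoters of Cyp2c67, Cyp2c68, Cyp2c40 and Cyp2c69 are closely alike, so their matches are not separate observations. Aligned with each other, the promoters of Cyp2c40 and Cyp2c69 were 98.89% identical over 270 bases. The promoters of Cyp2c68 and Cyp2c69 were 93.58% identical over 296 bases and those of Cyp2c67 and Cyp2c68 91.63% over 251 bases. TTCNNNGAA, the letters bound by STAT5, the palindrome bound by HNF1 and the DR4 direct repeat bound by CAR were found in 0 of the 29 promoters, and in 8.3%, 0.00913% and 0.0152% of all promoters. No such match says only that these letters are not in these windows.

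Cyp2c68 (ENSMUSG00000074882.3) had 4642, 4828 and 4923 normalised counts in vehicle libraries 1 to 3 and 7725 and 7975 in SR4. The groups were far apart beside the spread within them. It rose 1.64-fold on the log2(value + 1) scale, with a log2 fold change of 0.71 ± 0.12 (SE) and a limma adjusted p of 0.0471. The call was lost with any 1 library left out, at adjusted p = 0.0684, 0.133 and 0.106 without vehicle 1, 2 and 3 and 0.0717 and 0.178 without SR4 1 and 2, while the log2 fold change stayed between 0.69 and 0.73. It was also lost with equal totals (adjusted p = 0.0551), with limma-voom weights (adjusted p = 0.0620) and with the replicate number as a block (adjusted p = 0.0679).

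Cyp2c40 had 233.1, 656.1 and 184.4 normalised counts in vehicle and 2788 and 4963 in SR4. Cyp2c69 had 91.4, 269.4 and 219 in vehicle and 989.4 and 1856 in SR4. In both genes the SR4 libraries were several times above every vehicle library, with log2 fold changes of 3.61 ± 0.59 and 2.94 ± 0.51 (SE) and limma adjusted p-values of 0.0621 and 0.0627, just past the threshold. Cyp2c40 passed without vehicle 2 (adjusted p = 0.0399, within 0.0399 to 0.282 with 1 library left out). Cyp2c67 had lower values in SR4, with 3556, 3282 and 3140 in vehicle and 2618 and 2763 in SR4. Its groups did not overlap, and its log2 fold change of -0.30 ± 0.11 did not pass (limma adjusted p = 0.191).

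Reads from these 4 genes are hard to tell apart, so the split between them is uncertain. Of all 50-base windows of the transcript, 72.1% in Cyp2c40, 54.8% in Cyp2c69, 52.8% in Cyp2c67 and 43.3% in Cyp2c68 also occur in a transcript of another gene. Their sum does not depend on how reads were divided among the 4. It would still depend on shared reads that were dropped or counted more than once, and the counter is not known. The sum was 8523, 9035 and 8467 normalised counts in vehicle and 14120 and 17560 in SR4, a ratio of 1.83. Within the sum, the share counted to Cyp2c40 was 2.18% to 7.26% in vehicle and 19.7% and 28.3% in SR4, and that counted to Cyp2c67 was 36.3% to 41.7% and then 18.5% and 15.7%. Cyp2c68 held 53.4% to 58.2% in vehicle and had 54.7% and 45.4% in SR4. The stacked plot shows both the sums and the different make-up of the SR4 bars.

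**Figure D2:**
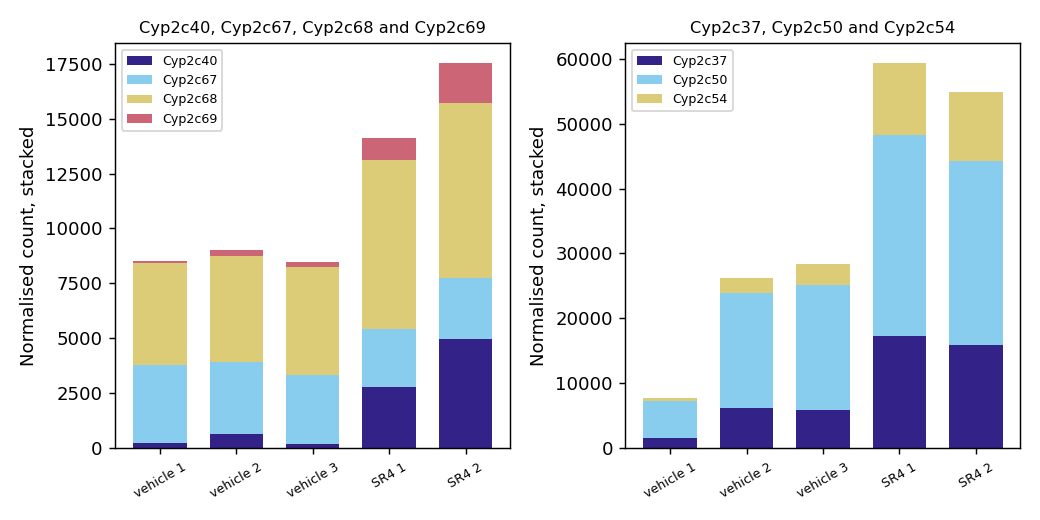
Normalised counts of 2 groups of near-identical Cyp2c genes stacked within each library (left, Cyp2c40, Cyp2c67, Cyp2c68 and Cyp2c69; right, Cyp2c37, Cyp2c50 and Cyp2c54). The left bars reach 8467 to 9035 in vehicle and 14120 and 17560 in SR4; the right bars reach 7675 in vehicle 1, 26220 and 28310 in vehicle 2 and 3, and 59440 and 54980 in SR4.

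Cyp2c37, Cyp2c50 and Cyp2c54, arachidonic acid hydroxylases and epoxygenases that lie side by side at 39992424 to 40113950, form another close group with 95.1% to 96.12% coding identity. Cyp2c37 had 1474, 6193 and 5886 normalised counts in vehicle and 17340 and 15850 in SR4. Cyp2c54 had 384.3, 2235 and 3109 in vehicle and 11230 and 10680 in SR4. Both genes were well above the vehicle range in SR4, and both were much lower in vehicle 1 than in the other vehicle libraries. Neither gene passed with all 5 libraries (log2 fold change 2.14 ± 0.66 and 2.98 ± 0.94, limma adjusted p = 0.157 and 0.169). Without vehicle 1 both passed, at limma adjusted p = 0.0156 and 0.0151, with smaller log2 fold changes of 1.46 and 2.06. Over all fits with 1 library left out the adjusted p ran from 0.0156 to 0.466 for Cyp2c37 and from 0.0151 to 0.474 for Cyp2c54. Cyp2c50 had 5817, 17790 and 19310 in vehicle and 30870 and 28450 in SR4, with a log2 fold change of 1.23 ± 0.53 (limma adjusted p = 0.247), or 0.68 without vehicle 1 (limma adjusted p = 0.110). The sum of the 3 had a ratio of SR4 to vehicle of 2.76, or 2.1 without vehicle 1. Of their 50-base windows, 25.7% to 30.7% occur in other genes.

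Cyp2c29, a retinoid and arachidonic acid oxidase and the Cyp2c gene with the highest level per kilobase, had 28100, 50120 and 55550 normalised counts in vehicle and 81690 and 59740 in SR4. SR4 2 lay only a little above vehicle 3, and the log2 fold change of 0.71 ± 0.33 did not pass (limma adjusted p = 0.273). It was 0.41 without vehicle 1 (limma adjusted p = 0.385). Cyp2c44, an epoxygenase with 0% of its windows shared with another gene, had 1769, 3034 and 3659 in vehicle and 6332 and 9226 in SR4 (log2 fold change 1.502 ± 0.333, limma adjusted p = 0.0868). Both its SR4 libraries were above every vehicle library. Cyp2c39, a retinoic acid hydroxylase, and Cyp2c55 also lay above the vehicle range in SR4, with log2 fold changes of 0.47 (0.24 without vehicle 1) and 0.43. Cyp2c38 and Cyp2c70 overlapped between groups, at -0.43 and 0.52. Cyp2c70 makes muricholic acids, the bile acids typical of mice, and had 2065, 2786 and 2950 in vehicle and 5069 and 2692 in SR4, so that the 2 SR4 libraries disagreed.

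Of the 3 Cyp2b genes 0 passed over all genes, and their median log2 fold change was 0.80. Cyp2b10, the classic gene induced through CAR (chromosome 7, 25897620 to 25926624), had 1085, 3066 and 1422 normalised counts in vehicle and 7312 and 6271 in SR4. Both SR4 libraries were far above every vehicle library, and the log2 fold change of 2.01 ± 0.43 narrowly missed the threshold (limma adjusted p = 0.0834). It passed without vehicle 2, at adjusted p = 0.0391, and ran up to 0.311 with other libraries left out. Cyp2b9, expressed mainly in female mouse liver and highest of the 3 per kilobase, had 6982, 12360 and 9822 in vehicle and 16850 and 16140 in SR4 (log2 fold change 0.80 ± 0.24, limma adjusted p = 0.134). Its neighbour Cyp2b13, also known for its female bias, had 1975, 9934 and 4546 in vehicle and 6813 and 8207 in SR4. Here the groups overlapped, because vehicle 2 was above both SR4 libraries. The log2 fold change was 0.74 ± 0.65 (limma adjusted p = 0.558), or 0.15 without vehicle 1 (limma adjusted p = 0.876).

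The promoters of Cyp2b9 and Cyp2b13 are shown because they differ at 2 of 300 bases, which are in capitals, while the coding sequences are 92.74% identical.
Cyp2b9, chr7:26173159-26173458, plus strand: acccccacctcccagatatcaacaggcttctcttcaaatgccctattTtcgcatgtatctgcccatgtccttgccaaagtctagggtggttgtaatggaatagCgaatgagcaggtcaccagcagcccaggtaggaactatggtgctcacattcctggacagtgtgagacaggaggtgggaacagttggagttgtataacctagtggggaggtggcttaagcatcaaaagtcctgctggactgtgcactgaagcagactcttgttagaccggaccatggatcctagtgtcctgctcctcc
Cyp2b13, chr7:26061245-26061544, plus strand: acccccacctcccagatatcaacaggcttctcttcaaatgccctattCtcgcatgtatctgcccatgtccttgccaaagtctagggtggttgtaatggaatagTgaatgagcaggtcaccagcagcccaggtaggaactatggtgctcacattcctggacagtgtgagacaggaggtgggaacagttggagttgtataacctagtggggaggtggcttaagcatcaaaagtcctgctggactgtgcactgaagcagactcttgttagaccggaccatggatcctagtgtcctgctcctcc

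Vehicle library 1 was lowest and vehicle library 2 highest for both genes of this pair, and the same held for Cyp2b10. Vehicle 1 was also the lowest for 27 of the 36 Cyp2 genes. The promoter of Cyp2b10 was 76.12% identical to that of Cyp2b9 or Cyp2b13 over 289 aligned bases.

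Of the 4 Cyp2a genes 0 passed over all genes. Each was fitted above 0, and the median log2 fold change was 0.63. Cyp2a22 had the smallest p of the 4, with 2709, 3414 and 3702 normalised counts in vehicle and 5282 and 4586 in SR4 (log2 fold change 0.60 ± 0.16, limma adjusted p = 0.112). Cyp2a5, the coumarin hydroxylase of mouse liver and second in level per kilobase within the family, had 30930, 42730 and 72700 in vehicle and 76530 and 69250 in SR4. Vehicle 3 was as high as the SR4 libraries and the groups overlapped. The log2 fold change was 0.67 ± 0.35 (limma adjusted p = 0.326), or 0.39 without vehicle 1 (limma adjusted p = 0.530). Cyp2a4, a testosterone hydroxylase expressed mainly in females, had 8379, 6454 and 3469 in vehicle and 14620 and 10860 in SR4 (log2 fold change 1.14 ± 0.38, limma adjusted p = 0.165). Its vehicle values ran in the opposite order to those of Cyp2a5, and the coding sequences of this pair are 98.45% identical. Of their 50-base windows 38.8% and 40.8% occur in other genes, so the split is uncertain. The sum of both was 39310, 49180 and 76170 in vehicle and 91160 and 80110 in SR4, and these groups did not overlap. Cyp2a12 lay above the vehicle range in SR4, at a log2 fold change of 0.39 (limma adjusted p = 0.215).

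Cyp2d genes had fitted changes of both signs, with a median log2 fold change of 0.15 (-0.05 without vehicle 1), and 0 of 8 passed over all genes. Cyp2d9, a testosterone hydroxylase expressed mainly in male mouse liver (chromosome 15, 82433437 to 82456845), had 4950, 12720 and 10550 normalised counts in vehicle and 3037 and 2464 in SR4. Both SR4 libraries were below every vehicle library, and the log2 fold change of -1.67 ± 0.40 did not pass (limma adjusted p = 0.101). Cyp2d40 had 1673, 3249 and 2895 in vehicle and 1264 and 1053 in SR4 (log2 fold change -1.12 ± 0.29, limma adjusted p = 0.110). Vehicle 1 was the nearest to SR4 in both genes. Without vehicle 1 both passed as lower, at limma adjusted p = 0.0149 and 0.0187 and log2 fold changes of -2.08 and -1.41. Over all fits with 1 library left out the adjusted p ran from 0.0149 to 0.362 for Cyp2d9 and from 0.0187 to 0.383 for Cyp2d40. Cyp2d13, which RefSeq lists as a transcribed pseudogene, was the third gene below the vehicle range, with 698.1, 1378 and 2169 in vehicle and 625.3 and 425.5 in SR4. Cyp2d26, the Cyp2d gene with the highest level per kilobase, had higher values in SR4, with 22510, 35580 and 29110 in vehicle and 49460 and 40720 in SR4 (log2 fold change 0.65 ± 0.23, limma adjusted p = 0.177). Cyp2d22 also lay above the vehicle range, at 0.36, or 0.22 without vehicle 1. Cyp2d10, Cyp2d11 and Cyp2d12 overlapped between groups. Of the 50-base windows, 40.5% in Cyp2d10, 37.2% in Cyp2d11, 29% in Cyp2d9 and 24.1% in Cyp2d40 occur in other genes. In Cyp2d12, Cyp2d26 and Cyp2d22 these were 17.9%, 10.5% and 6.14%. The split of reads among Cyp2d genes is therefore uncertain too, and its part in their fitted signs was not tested.

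Along the chromosome 15 array of 423.8 kilobases, genes of both fitted signs are interspersed. All 9 genes of the chromosome 7 array of 1236 kilobases, from Cyp2b10 to Cyp2f2, had a fitted change above 0, against 49% of all genes. Within the array on chromosome 19 the 5 highest fitted changes lie side by side, from Cyp2c40 to Cyp2c50, while Cyp2c44 outside it had 1.502. These neighbours are also the near-identical genes among which reads can be divided, and that part in the pattern was not tested.

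**Figure D3:**
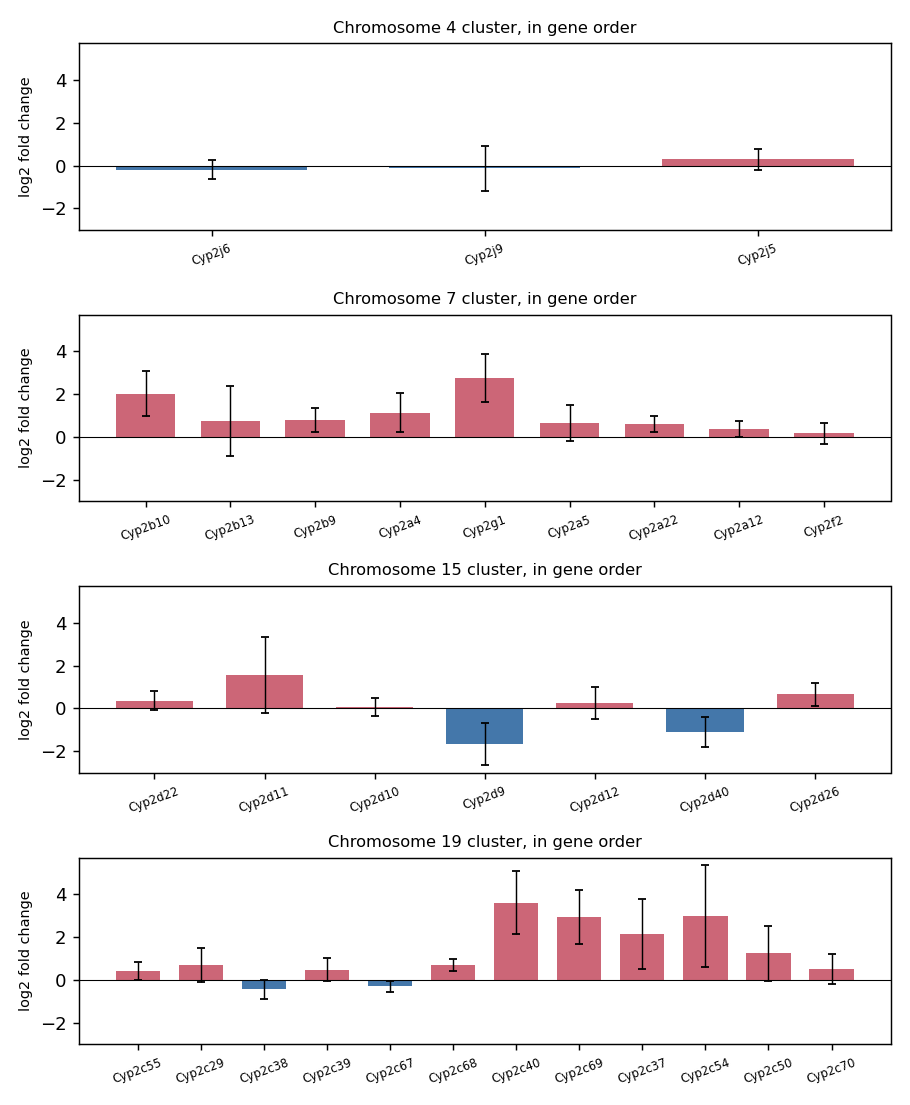
Log2 fold change (SR4 minus vehicle) with its 95% limma interval for the members of 4 arrays, in gene order along each chromosome, red above 0 and blue below. All 9 genes on chromosome 7 are above 0, genes on chromosome 15 range from -1.67 to 1.55, and on chromosome 19 the largest value is 3.61 for Cyp2c40.

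Among the subfamilies with 1 gene, Cyp2g1, known from olfactory mucosa, had 7.848, 12.26 and 19.56 normalised counts in vehicle and 75.59 and 104.9 in SR4. The SR4 libraries were clearly above, but the level stayed low, and the log2 fold change of 2.75 ± 0.48 fell just short of the threshold (limma adjusted p = 0.0519). It passed with no filter on low values (adjusted p = 0.0462) and with a pseudocount of 10 (adjusted p = 0.0434). Cyp2e1, which oxidizes ethanol and acetone near the central vein, had 59290, 117600 and 140800 in vehicle and 175700 and 119600 in SR4. The spread within both groups was wide and the groups overlapped (log2 fold change 0.54 ± 0.40, limma adjusted p = 0.475). Without vehicle 1 the log2 fold change of Cyp2e1 was 0.17 (limma adjusted p = 0.764). Cyp2f2, a naphthalene oxidase expressed near the portal vein, had 23880, 33160 and 34140 in vehicle and 33240 and 34910 in SR4 (limma adjusted p = 0.650). Cyp2r1, a vitamin D hydroxylase, had 336.1, 284.3 and 347.4 in vehicle and 274.9 and 304.5 in SR4 (limma adjusted p = 0.599). Cyp2u1, a fatty acid hydroxylase, had 52.55, 22.56 and 53.58 in vehicle and 33.39 and 59.55 in SR4 (limma adjusted p = 0.887). The groups overlapped in Cyp2f2, Cyp2r1 and Cyp2u1. For Cyp2f2 the 95% interval of the log2 fold change ran from -0.31 to 0.67, for Cyp2r1 from -0.50 to 0.20. Without vehicle 1 the log2 fold change of Cyp2f2 was 0.02 against 0.18, and that of Cyp2u1 0.35 against 0.15.

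None of the 3 Cyp2j genes, epoxygenases of arachidonic acid, passed, and in all 3 the groups overlapped. Cyp2j5, which had the smallest p and the highest level per kilobase of them, had 9322, 13670 and 12370 normalised counts in vehicle and 13040 and 15470 in SR4 (log2 fold change 0.29 ± 0.20, limma adjusted p = 0.452). Without vehicle 1 its log2 fold change was 0.13 (limma adjusted p = 0.725). The fitted changes of Cyp2j6 and Cyp2j9 were -0.19 and -0.12 (-0.20 for Cyp2j9 without vehicle 1), and their direction turned with single libraries left out. The plot of fold changes with their intervals sets these beside the other subfamilies.

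**Figure D4:**
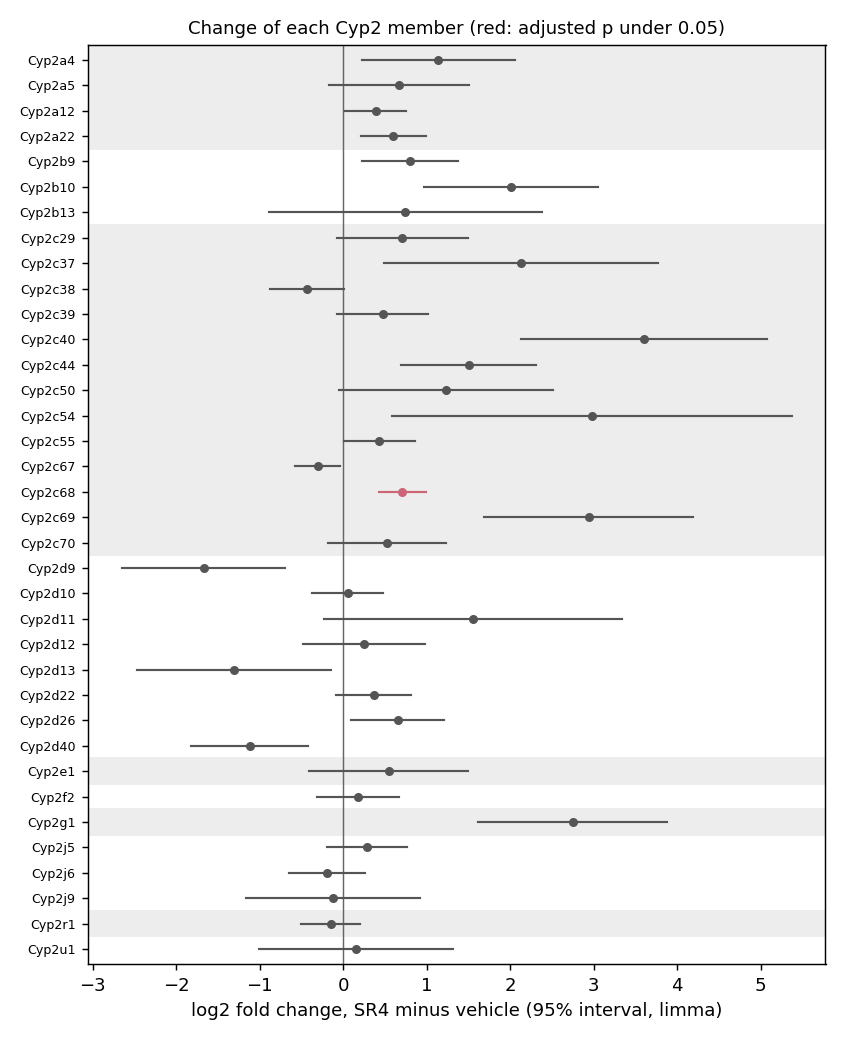
Log2 fold change (SR4 minus vehicle) of the 36 Cyp2 genes with the 95% limma interval, by subfamily (grey bands), with the gene that passed in red. Cyp2c68 has a narrow interval, 0.43 to 0.99, whereas larger fitted changes such as Cyp2c40 and Cyp2c54 have wide ones, 2.13 to 5.08 and 0.58 to 5.38.

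Sorted by sex bias known from mouse liver, the list of 9 genes taken as female-biased (Cyp2a4, Cyp2b9, Cyp2b10, Cyp2b13, Cyp2c38, Cyp2c39, Cyp2c40, Cyp2c69 and Cyp2g1) had 0 that passed, 8 fitted above 0 and a median of 1.14 (log2 fold change). In 7 of the 9 both SR4 libraries lay above the vehicle range, against 21.1% of all genes, and 49% of all genes were fitted above 0. Near-identical genes in the list, such as Cyp2c40 and Cyp2c69, can share reads and are not separate observations. Of 3 genes taken as male-biased (Cyp2d9, Cyp2f2 and Cyp2u1) 0 passed, and their median was 0.15. Without vehicle 1 that median was 0.02 and 1 of the 3, Cyp2d9, passed as lower. Both lists repeat values of members given above.

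The genes that serve or regulate these enzymes were read from the same fit. In the list of electron and heme supply, 0 of 18 genes passed, with a median of -0.03. Por, the reductase that feeds electrons to these enzymes, had 9712, 13890 and 14880 normalised counts in vehicle and 24740 and 25280 in SR4, above every vehicle library (log2 fold change 0.99, limma adjusted p = 0.0733). Blvrb, a biliverdin reductase, had 4520, 4261 and 4958 in vehicle and 3110 and 2596 in SR4 (limma adjusted p = 0.0649). Among 17 nuclear receptors and partners 0 passed, with a median of 0.07. Those with the smallest p were Esr1, the estrogen receptor, at 138.7 ± 33.6 and 357.9 ± 95.6 (limma adjusted p = 0.0655), and Nfe2l2, which encodes NRF2, at 2787 ± 347 and 1722 ± 119 (limma adjusted p = 0.0655), with SD, n = 3 in vehicle and n = 2 in SR4. Nr1i3 and Nr1i2, singled out after their values were seen, had log2 fold changes of 0.07 ± 0.48 and 0.09 ± 0.12 (SE). The groups overlapped in both genes. Nr1i3 had 1329, 2330 and 4280 normalised counts in vehicle and 2982 and 2062 in SR4. The 95% interval of its log2 fold change ran from -1.11 to 1.25, too wide to call Nr1i3 unchanged. That of Nr1i2 ran from -0.21 to 0.38. Receptor transcript levels do not measure receptor activity.

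Of 21 liver transcription factors and sex-dependent regulators 2 rose, against 0.436% of all genes called higher, with a median of 0.18. Cux2, a repressor expressed mainly in female liver, had 7.885, 27.46 and 24.03 normalised counts in vehicle and 686.9 and 743.2 in SR4 (limma adjusted p = 0.0264). Prlr, the prolactin receptor, had 1717, 2794 and 2695 in vehicle and 5921 and 7485 in SR4 (limma adjusted p = 0.0471). Both were well separated between groups. Among 25 CAR and PXR target genes outside the family 13 were fitted above 0 and 12 below, with a median of 0.20, or -0.02 without SR4 1. Of these 25 genes 2 rose. They were Cyp3a13, from 2580 ± 408 to 6039 ± 259, and Slco1a4, an organic anion transporter, from 2071 ± 408 to 4306 ± 86.1 (limma adjusted p = 0.0330 and 0.0450).

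Other P450 families were set beside Cyp2 for scale. Of 7 Cyp3 genes 2 rose, Cyp3a41a and Cyp3a13, where 0.436% of all genes were called higher. Each of the 7 was fitted above 0, against 49% of all genes, and their median was 0.60. Of 13 Cyp4 genes, 11 were above 0, with a median of 0.54, and 0 passed; the smallest p belonged to Cyp4a12b, with 56.51 ± 41.3 and 694.7 ± 337, and Cyp4a10, with 10830 ± 4000 and 34710 ± 2690 (limma adjusted p = 0.0621 and 0.0673). Of 12 further P450 genes 1 rose, Cyp1a2, from 9331 ± 2450 to 23790 ± 1610 (limma adjusted p = 0.0490), and their median was 0.16. The Cyp2 median of 0.53 lay within the range of these medians, and no test of a difference between families was made.

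Lists of genes known for their zone in the liver lobule were read in the same way, beside 0.436% of all genes called higher. Of 14 pericentral genes outside the family 1 rose, Cyp1a2, and the median was -0.06, whereas of 14 periportal genes 1 rose and the median was 1.00. The gene that rose was Sds, a serine dehydratase, from 8168 ± 2320 to 27730 ± 4580 (limma adjusted p = 0.0450 for Sds).

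The calls in these lists of other genes changed with single libraries. Without vehicle 2, without vehicle 3 or without SR4 2, 0 genes were called in every list above that had a call, and the same held without SR4 1 for CAR and PXR targets and pericentral genes. With equal totals 1 CAR and PXR target passed in place of 2, and 1 gene of electron and heme supply passed in place of 0. In that setting 3 transcription factors passed in place of 2, and 2 pericentral genes in place of 1. With vehicle 1 left out, calls numbered 3 for CAR and PXR targets, 2 pericentral, 2 periportal and 1 each for Cyp3 and Cyp4. With the replicate block 3 CAR and PXR targets, 3 pericentral, 4 periportal, 4 Cyp4, 3 further P450 and 3 female-biased Cyp2 genes passed. With limma-voom weights 1 gene passed in each of the lists of CAR and PXR targets, transcription factors and Cyp3, and 0 in the periportal, pericentral and other P450 lists.

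In whole liver, fewer cells of a type and less RNA per cell cannot be told apart. Of 8 hepatocyte markers 7 were tested. Their median log2 fold change was 0.09 and their summed counts were 2083000 to 2688000 in vehicle and 2135000 and 2752000 in SR4. Of 11 Kupffer cell and macrophage markers 9 were tested and all 9 had a fitted change below 0, with summed counts of 7058 to 10650 in vehicle and 6915 and 3472 in SR4. All 9 stellate cell markers were below 0, with sums of 8579 to 14240 and then 9417 and 7364. Of 9 endothelial markers 7 were below 0, with sums of 4983 to 7285 and then 7166 and 4254. Over all genes tested, 49% were fitted above 0. Of 6 cholangiocyte and 8 lymphocyte markers 1 each was tested, Spp1 and Ptprc. No marker passed at an adjusted p under 0.05, and every tested marker had reads in each library. Vehicle 1, lowest for most Cyp2 genes, had the highest sum of Kupffer and stellate markers in vehicle. It also had the highest Spp1 (3512 against 1147 and 1051) and Ptprc (182 against 89.67 and 83.5). Its stellate sum was only a little above that of vehicle 2 (14240 against 13670). Endothelial markers went the other way, with the lowest vehicle sum in vehicle 1 (4983 against 5409 and 7285). The part of these cells in the Cyp2 values was not tested.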

How the data were processed

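The table deposited by the authors holds signal values, which are read counts per gene rescaled to 1 common library total. The values themselves show this: the 5 columns sum to the same total within 0.0012%, and most values are not whole. TopHat2 2.1.1, Partek and GRCm38 (mm10) are named in the submitters' processing notes. The sources used here do not give the counter, the gene annotation or the rescaling step. Per the labels' protocols, RNA came from an RNeasy kit and libraries from a TruSeq V2 kit, which does not keep strand. In 17 rows, with 0.18% of counts, a date stood in place of the symbol; they were left out of all tests.

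Values were divided by trimmed mean of M values factors (trims 0.3 and 0.05), genes with 10 or more in at least 2 libraries were kept (10542), and limma 3.58.1 in R 4.3.3 was fitted to log2(value + 1) with a mean trend, robust shrinkage and Benjamini-Hochberg adjustment at 0.05. The steps were tested on simulated data with a small spread between libraries. Many Cyp2 genes varied more than that in vehicle, so the simulation does not say how well their changes are recovered. Fold changes on this scale understate low genes. Alternatives were other scalings, pseudocounts and filters, plain shrinkage, a block on the replicate number, and leaving out every library in turn; limma-voom was added after seeing the data. No count model was used, because the values are not counts.

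Exon lengths and positions are from GENCODE M21, with 35 of 36 members matched, 1 of them (Cyp2c44) through a RefSeq synonym; promoters are from RefSeq (GRCm38.p6), with 29 matched. Coding sequences were aligned pairwise with Biopython 1.88.

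Values in every library are given for members that passed, and in each subfamily for the member with the smallest p and that with the highest level per length; others were added after their values were seen. Of other lists, up to 4 members that passed are named, otherwise the 2 with the smallest p. The groups of near-identical genes and the promoters to print were also chosen with values known. The members and lists were chosen with earlier results of these data known.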

Additional observations from a re-analysis of the deposited data

How the results depend on the processing

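Over all genes 139 were called; the count was 452 with the replicate block and 43 with limma-voom weights, and from 5 to 192 when a library was left out. Of the Cyp2 genes 1 was called; the count was 0 with equal totals and 0 with limma-voom weights, 2 with a pseudocount of 10, 2 with no filter, 3 without robust shrinkage (Cyp2c40, Cyp2c68 and Cyp2c69), 5 with the replicate block (Cyp2c40, Cyp2c44, Cyp2c69, Cyp2d11 and Cyp2g1, without Cyp2c68), and 0 to 4 when a library was left out (4 without vehicle 1, 2 without vehicle 2, otherwise 0). The causes were not tested. In the labels, samples with the same number share only that number. Deviations from the group means correlated at 0.174 for number 1 and 0.112 for number 2, and at 0.104 for vehicle 3 with SR4 2. The deviations of the 2 SR4 libraries are exact opposites, so these values cannot tell whether equal numbers mark pairs. A block leaves vehicle 3 without a partner, so that it does not bear on the change.

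Of the 36 genes, 31 kept 1 direction in the main fit and all 14 alternatives. The log2 fold change of Cyp2d10 was -0.062 with equal totals and that of Cyp2j9 0.126 with the replicate block, against 0.056 and -0.123. With 1 library left out, Cyp2d10 ran from -0.066 to 0.133, Cyp2d12 from -0.041 to 0.439, Cyp2j6 from -0.475 to 0.089, Cyp2j9 from -0.764 to 0.518 and Cyp2u1 from -0.253 to 0.563. The Cyp2j median ran from -0.29 to 0.164. A fit without an SR4 library takes the other one to vary as the vehicle libraries do. Intervals could not be set from depth, since the values do not keep it.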

Other observations

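The pseudogene Cyp2d37-ps lies outside the naming rule and had 214, 299.4 and 673.5 normalised counts in vehicle and 206 and 163.7 in SR4. Both SR4 libraries were below the vehicle range, as in 20.5% of all genes, and the change did not pass (log2 fold change -0.93, limma adjusted p = 0.315). Cyp2d9, Cyp2d13 and Cyp2d40 also lay below that range, whereas Cyp2d22 and Cyp2d26 lay above it.

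Outside the family, the 5 genes whose log2 values followed Cyp2c68 most closely over the 5 libraries were Osgepl1, C2, Actr8, Eva1a and Bin3, with Pearson r from 0.9962 to 0.9974. The correlation is a description over 5 libraries that form 2 groups and share their scaling. C2, a complement component, had 1968, 1965 and 1972 normalised counts in vehicle and 3107 and 3191 in SR4, and Bin3 333.2, 366.5 and 365 in vehicle and 585.4 and 640.3 in SR4. Both rose (limma adjusted p = 0.0389 and 0.0439), while Osgepl1, Actr8 and Eva1a did not pass (limma adjusted p = 0.152, 0.0844 and 0.109).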
